A study of Drosophila melanogaster with 2 samples.

Results

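The sites described here are the CG1663-GFP binding summits that lay at promoters of long noncoding RNAs (lncRNAs) in Drosophila melanogaster pupae. They were chosen by position, without use of their signal: a summit of the IDR-thresholded list (IDR, the irreproducible discovery rate, rates how well the order of peaks repeats between replicates) was kept when its nearest annotated transcript start lay within 500 bp and belonged to a gene whose name begins with lncRNA: or asRNA:, the second prefix marking RNAs named as antisense to another gene. Of the 9657 summits in the list, 300 met this rule. A further 2605 summits had a protein-coding start as the nearest within 500 bp, and 41 had a start of another kind. Of the 300, 266 lay at genes named lncRNA: and 34 at genes named asRNA:. They fell on 274 genes, of which 249 had 1 such summit, 24 had 2 and 1 had 3.

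All samples were of 1 kind: chromatin of whole pupae of both sexes, pooled and with 24 hours given as their age. The transgenic line carries CG1663 with GFP at the C terminus of the protein. Chromatin immunoprecipitation followed by sequencing (ChIP-seq) with an antibody to GFP was done on 2 biological replicates, numbered 1 and 3. Both come from the same line and carry the tagged protein, no untagged line was analysed here, and each replicate was called against the same control file. The deposited lists of each replicate hold 30000 peaks. They contain no read totals, so sequencing depth is unknown, and the intervals below cover counting error only. Signal is the authors' own value per peak, which can be compared within a list and not between lists. In whole pupae, a site occupied in few cells and a site occupied weakly in many cells cannot be told apart.

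Long noncoding RNAs are transcripts that are not known to encode a protein. Most fly lncRNA genes have only a CR number for a name, and their roles are unknown. A small set is well studied, among them roX1 and roX2, which carry the dosage compensation complex to the male X chromosome, Hsromega, which organises nuclear speckles and is induced by heat shock, and flam, a source of piRNAs that silence transposable elements. Some lncRNA genes are also the primary transcripts of microRNAs. A noncoding gene that overlaps a microRNA gene in position, on either strand, is called its host here. Their starts can lie alone, inside a coding gene on the opposite strand, or back to back with a coding promoter, and in the last case a binding site cannot be given to either gene.

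The DNA under 7 lncRNA promoter summits is shown. The first 4 are among the 5 strongest without a coding start within 500 bp, the fifth window belongs to the next strongest microRNA host, and the last pair to the characterised RNAs Hsromega and flam. Each window is 101 bp centred on the summit, read on the strand of the lncRNA from the Release 6 genome (dm6) of RefSeq, and capitals mark runs of at least 6 A or T bases. The windows are lncRNA:CR31044 (chr3R:29214388-29214488, plus strand), lncRNA:CR46102 (chr3R:25738124-25738224, plus strand), lncRNA:CR46036 (chr3R:17700544-17700644, plus strand), lncRNA:CR44676 (chr3L:19560784-19560884, minus strand), lncRNA:CR43626 (chr3L:3248874-3248974, plus strand), lncRNA:Hsromega (chr3R:21296298-21296398, plus strand) and lncRNA:flam (chrX:21631636-21631736, plus strand).
lncRNA:CR31044: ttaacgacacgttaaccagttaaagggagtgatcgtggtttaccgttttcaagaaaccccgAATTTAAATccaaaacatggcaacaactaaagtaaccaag
lncRNA:CR46102: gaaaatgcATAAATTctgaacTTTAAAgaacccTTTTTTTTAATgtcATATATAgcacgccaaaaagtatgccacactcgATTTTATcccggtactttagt
lncRNA:CR46036: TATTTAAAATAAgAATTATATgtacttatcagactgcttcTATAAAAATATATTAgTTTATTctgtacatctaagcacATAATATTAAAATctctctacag
lncRNA:CR44676: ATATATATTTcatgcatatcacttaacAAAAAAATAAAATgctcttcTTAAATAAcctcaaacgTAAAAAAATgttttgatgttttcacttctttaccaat
lncRNA:CR43626: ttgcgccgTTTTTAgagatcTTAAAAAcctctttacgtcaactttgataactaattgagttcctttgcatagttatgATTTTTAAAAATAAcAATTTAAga
lncRNA:Hsromega: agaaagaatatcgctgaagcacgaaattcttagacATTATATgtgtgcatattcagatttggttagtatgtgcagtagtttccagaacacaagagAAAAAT
lncRNA:flam: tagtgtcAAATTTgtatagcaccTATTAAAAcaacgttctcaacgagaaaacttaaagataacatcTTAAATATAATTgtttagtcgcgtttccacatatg
The window at CR46036 held 21.8% GC, against 55.4% in the flanks 400 bp to each side, and its longest A or T run was 15 bases. It contained TATAAA at position 41 on the strand shown, and GATAAG and GAGAG on the opposite strand, at positions 25 and 92. The summit at its centre was 147 bp upstream of the lncRNA start. The GC content was also below that of the flanks at CR46102 (32.7% against 41.6%), CR44676 (22.8% against 33.2%), CR43626 (27.7% against 51.5%) and flam (29.7% against 33.7%). At CR31044 and Hsromega it was not, with 38.6% against 37.6% and 33.7% against 33.2%.

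The strongest lncRNA promoter was that of lncRNA:CR31044 on 3R, whose gene contains the microRNAs mir-279 and mir-996. Its peak (chr3R:29213915-29214708) had a signal of 6435.62 and rank 19 of the 9657, with the summit 124 bp upstream of the start. The replicate signals were 3601.89 (rank 25) in replicate 1 and 2853.04 (rank 14) in replicate 3. The nearest protein-coding start, that of the translation elongation factor subunit eEF1gamma, was 5734 bp away.

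Next was lncRNA:CR44339 on 2R (chr2R:12984932-12985467, 4775.19, rank 55), with signals of 2808.67 in replicate 1 and 1978.11 in replicate 3. Its summit lay 157 bp upstream of the start and 4216 bp from the start of Psc, a Polycomb group protein. The following pair lay inside coding genes, on the opposite strand. The summit of lncRNA:CR46102 (chr3R:25737923-25738465, 4520.45, rank 61) sat in LpR2, a lipophorin receptor gene, 147 bp downstream of the lncRNA start and 2291 bp from a start of LpR2. The summit of lncRNA:CR46036 (chr3R:17700279-17700892, 4447.28, rank 66) sat in osa, which encodes a subunit of the Brahma chromatin remodelling complex, 147 bp upstream of the lncRNA start. The nearest coding start to it was that of CG31249, 13523 bp away.

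Farther down the list, lncRNA:CR44676 (chr3L:19560335-19561321, 4258.75) and lncRNA:CR45595 (chr3R:11779882-11780569, 4021.99) lay outside coding genes, with summits 356 bp downstream and 328 bp upstream of their starts. The gene of CR44676 is 371 bp long, so its summit was also near its far end. A summit at the microRNA host lncRNA:CR43626 (chr3L:3248597-3249447, 3880.2) was 416 bp upstream, and lay in an exon of CG43389. That of lncRNA:CR44409 (chr2L:17429916-17430523, 3249.68) lay in Dif, an NF-kappaB family factor of the immune response, 454 bp downstream of the lncRNA start. The gene of CR44409 is 452 bp long, so this summit lay just past its far end. The summit of lncRNA:CR45243 (chr3L:20950630-20951236, 3207.46) was 1442 bp from the start of fng, a glycosyltransferase that modifies Notch, and that of lncRNA:CR44742 (chr2L:5287194-5288065, 3176.74) was 1201 bp from the start of vri, a transcription factor of the circadian clock. The last pair of the 15 strongest were lncRNA:CR45668 (2806.89, 662 bp from the actin gene Act5C) and lncRNA:CR45424 (2798.89, back to back with CG12078). The summit of CR45424, at position 3245337, lay 341 bp downstream of a start and near the far end of the gene, at 3245340. All 15 had a peak in both replicates, with ranks of 25 to 345 in replicate 1 and 14 to 269 in replicate 3.

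**Figure D1:**
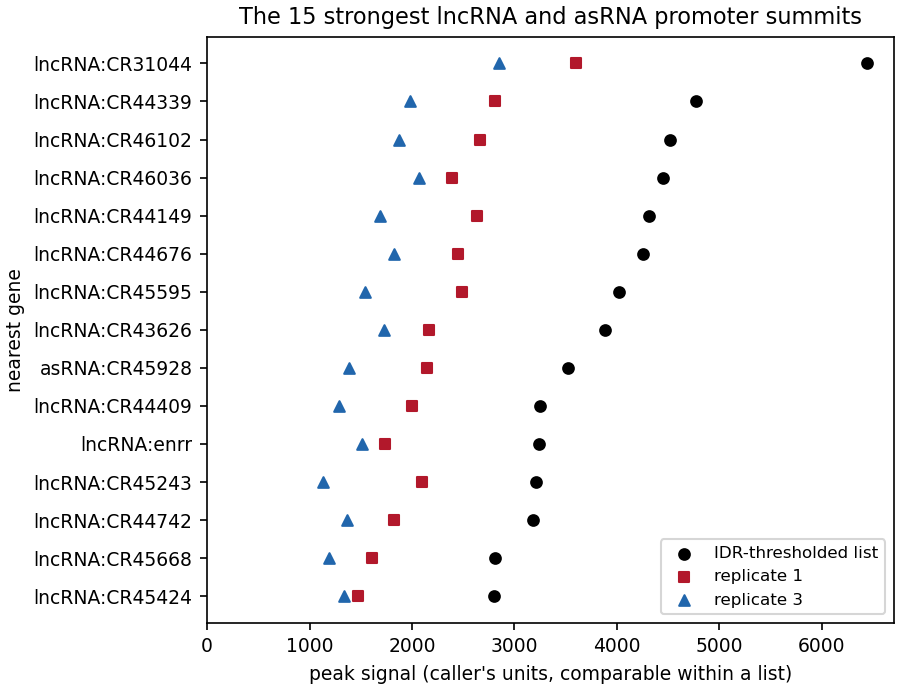
Peak signal (x axis, the caller's units) of the 15 strongest lncRNA and asRNA promoter summits, by nearest gene (y axis). Circles are the IDR-thresholded list, squares replicate 1 and triangles replicate 3. CR31044 leads in all 3 lists, with 6435.62, 3601.89 and 2853.04, and the scales of the lists differ.

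A protein-coding start also lay within 500 bp of 51 of the 300 summits, 17.0% (95% exact interval 12.9 to 21.7), and these cannot be given to the noncoding gene alone. The rule applied to the strongest 9657 peaks of each replicate gave 14.01% in replicate 1 and 19.9% in replicate 3. At 6 of the 51 the coding start was at the same distance as the noncoding one. Both summits at lncRNA:enrr (3243.07 and 213.999) were tied with elav, a neuronal RNA-binding protein, with which this lncRNA shares a start position on the X. The other ties were lncRNA:CR46393 with the cryptochrome gene cry (2405.9), asRNA:CR45827 with SCOT, a ketone body enzyme (2108.22), lncRNA:CR46258 with ush, a cofactor of GATA factors (334.309), and lncRNA:CR45212 with IKKbeta, a kinase of the immune response (268.482).

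The strongest of the 51 was lncRNA:CR44149 (chr2L:9568390-9569001, 4314.56, rank 72), with its summit 72 bp downstream of the lncRNA start and 177 bp upstream of the start of brwl, which points the other way. At asRNA:CR45928 on 2R (3517.52) the summit was 76 bp inside the asRNA and 105 bp upstream of eIF6, a ribosome biogenesis factor. The divergent lncRNA:CR43644 (2613.12) lay 433 bp upstream of E(spl)m3-HLH, a Notch target gene. At asRNA:CR45270 (2203.89) the coding start was that of grh, a transcription factor of epidermal cells, and the summit was 214 bp downstream of it. The median signal was 495.08 for the 51 and 418.703 for the other 249. Those 249 lay a median of 3449 bp from the nearest coding start, 92 of them over 5000 bp away and the farthest, at lncRNA:CR46006, 59023 bp away.

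Among RNAs with a name other than a CR number, 4 genes had summits of this kind. At Hsromega (chr3R:21296065-21296788) the signal was 2162.61 (rank 484) in the IDR-thresholded list, 1236.12 (rank 525) in replicate 1 and 931.792 (rank 447) in replicate 3, with the summit 221 bp downstream of the start. The nearest coding start, that of the neuropeptide receptor SIFaR, was 2350 bp away. At flam (chrX:21631625-21631884) the signals were 367.893 (rank 5051), 212.985 in replicate 1 (rank 5111) and 167.796 in replicate 3 (rank 4762), with the summit 205 bp upstream of the start. The site at flam was near the middle of the IDR-thresholded list, and Hsromega ranked above it in all 3 lists. TS2 on 2L had 193.384 (rank 8776) with the summit 11 bp upstream, and ranks of 7360 in replicate 1 and 13773 in replicate 3. The fourth was enrr, described with elav.

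A list of 24 characterised noncoding RNA genes was looked up whether or not they had a summit. By name 15 were matched in the annotation, and Hsromega and flam were the 2 with an IDR-thresholded summit within 500 bp of a start, in a background of 13.6% of all lncRNA and asRNA genes and 18.8% of all genes. The nearest summit was 4578 bp from a start of roX1 and 1446 bp from that of roX2. At bxd and iab8, noncoding transcripts of the bithorax complex, the nearest summits were 1375 and 8143 bp from a start. The let-7 complex gene let7C, host of let-7, missed the limit by little: its nearest summit, of signal 2368.99 and rank 387, was 554 bp from the start, and the gene body held 9 summits. Vinr had a summit in replicate 1 alone, 483 bp downstream, with a signal of 109.777. The other nearest distances ran up to 50475 bp, at sphinx on chromosome 4.

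MicroRNA hosts were picked out after the values had been seen. They were taken by overlap in position whatever the strand, so a host need not be the primary transcript of its microRNA. Of 41 lncRNA and asRNA genes that overlap an annotated mir gene, 11 had a summit near a start, 26.8% (14.2 to 42.9), against 13.6% of all lncRNA and asRNA genes and 18.8% of all genes. The interval holds the share over all genes and its lower end is close to that of the noncoding genes. There were 10 in the list of replicate 1 and 13 in that of replicate 3 (28.0% ± 5.17 on average, SD, n = 2). The 11 hosts held 14 of the 300 summits. After CR31044, the highest signals were those of CR43626, host of mir-282 (3880.2), and of Hsromega, which contains mir-4951. Next came another summit at CR43626 (1041.75), CR43857, host of mir-275 (1020, 379 bp upstream), and CR43650, host of mir-8, a member of the miR-200 family (998.426, 164 bp upstream). The promoter of CR43651, host of mir-14, had a signal of 614.785, and its matched peaks ranked 7233 in replicate 1 and 1354 in replicate 3. lncRNA:CR46006, host of mir-276a, was the 1 gene with 3 summits (529.898, 421.678 and 250.549). The first and the last of these lay in the same interval (chr3L:10331788-10332516) and were matched to the same replicate peaks. At the low end were CR43314, host of mir-bft (189.891), and CR42651, host of mir-10 (182.394).

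Antisense RNAs by name gave 34 summits. The strongest after asRNA:CR45928 was asRNA:CR46145 (chr3R:9393590-9394123, 2782.45), whose summit lay 8 bp before the start, inside FER, a tyrosine kinase gene, and 664 bp from a start of it. Its replicate signals were 1623.78 (rank 283) in replicate 1 and 1164.85 (rank 250) in replicate 3. The others of the 5 strongest were asRNA:CR45270 and asRNA:CR45827, given with grh and SCOT, and asRNA:CR43257 (1826.38, 157 bp upstream of its start and 240 bp upstream of Reg-5). Of the 5, asRNA:CR46145 was the 1 with no coding start within 500 bp.

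By annotation, and whatever their names, the 274 genes fell into 4 kinds of place. Genes overlapping a coding gene on the opposite strand were 82 (29.9%, against 35.8% of all 2447 lncRNA and asRNA genes), and those overlapping one on the same strand 17 (6.20% against 8.05%). Genes starting within 1000 bp of a coding start that points away were 21 (7.66% against 8.79%). The other 154 were intergenic by this scheme (56.2% against 47.4%). The nearest-start rule leaves out noncoding genes whose summit lies closer to a coding start, and these shares move with it. Over all 333 noncoding genes with a summit near a start, 49.2% were intergenic (164 genes), 34.5% antisense, 10.2% divergent (34 genes) and 6.01% on the same strand (20 genes). Median signals were 515.499 for the 89 summits of antisense genes, 460.467 for the 17 of same-strand genes, 473.623 for the 23 of divergent genes and 391.261 for the 171 of intergenic ones. Of the 300 summits, 94 lay inside a coding gene (31.3%, 26.1 to 36.9), 14 of them in one of its exons, and 92 lay in an exon of their own lncRNA. These counts of summits were not set against other summits of the list.

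Counted by gene, 333 of the 2447 lncRNA and asRNA genes had a summit within 500 bp of some start of theirs, 13.6% (12.27 to 15.03), against 18.8% of all 18164 genes and 21.5% of the 13945 protein-coding genes (20.8 to 22.2). For 59 of the 333 every such summit was assigned to the start of another gene. For the noncoding genes the replicates differed little, with 327 genes (13.4%) in replicate 1 and 341 (13.9%) in replicate 3 (13.6% ± 0.405 on average, SD, n = 2). For protein-coding genes the shares were 18.6% in replicate 1 and 26.7% in replicate 3 (22.6% ± 5.72 on average, SD, n = 2). The share over all genes was 16.5% in replicate 1 and 23.1% in replicate 3. Of the noncoding genes, 264 were bound in both replicates, 63 in replicate 1 alone and 77 in replicate 3 alone. The same split was not counted over all genes, so whether this overlap is usual cannot be judged. The noncoding share was below the share over all genes in each list, and this difference was not tested.

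The classes also differed in their number of starts. Noncoding genes had 1.07 annotated start positions on average and protein-coding genes 1.41, and whether this bears on the share was not tested. Among genes with 1 start position, 13.0% of the noncoding (302 of 2319, 11.7 to 14.5) and 15.5% of the protein-coding genes (1592 of 10246, 14.8 to 16.3) were bound. In replicate 1 these shares were 12.9% and 13.1%, and in replicate 3 they were 13.3% and 20.0%. The gap among these genes was wide in replicate 3 and narrow in replicate 1, and it was not tested.

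Genes named lncRNA: were bound in 280 of 1944 cases, 14.4% (12.9 to 16.0), and genes named asRNA: in 53 of 503, 10.5% (7.99 to 13.6). For asRNA genes the replicates gave 9.54% and 14.3%, a mean of 11.9% ± 3.37 (SD, n = 2), and for lncRNA genes 14.4% and 13.8%, a mean of 14.1% ± 0.364 (SD, n = 2), so the replicate ranges overlap. The place classes overlapped in their intervals, from 10.2% of same-strand genes (6.31 to 15.2) to 15.8% of divergent genes (11.2 to 21.4). Among arms, 2R had the highest share with 70 of 394 genes, 17.8% (14.1 to 21.9). Chromosome 4 had 0 of 24, which allows a share of up to 12.5% by the limit of 3 counts and 14.2% by the exact interval, and replicate 3 alone had 2.

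**Figure D2:**
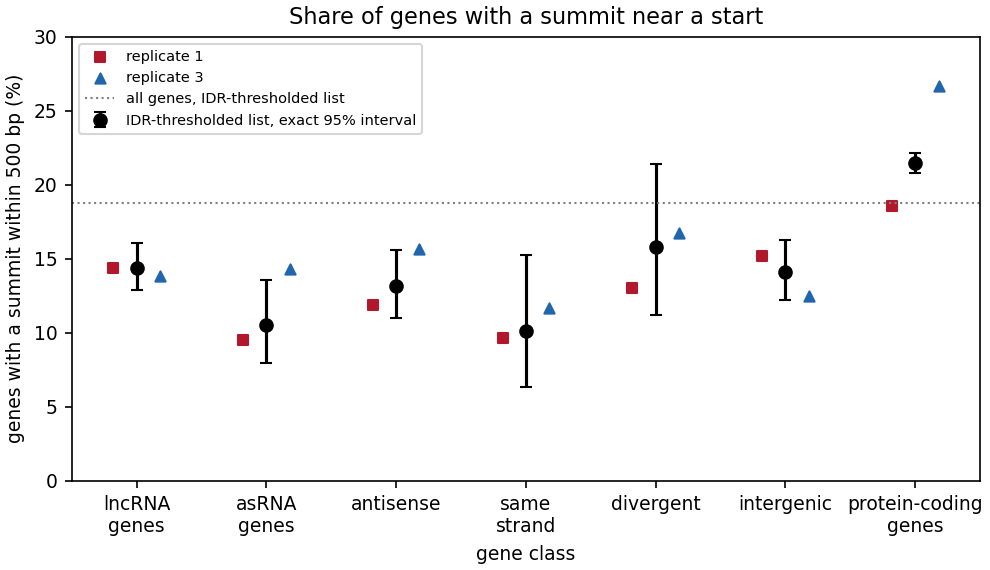
Share of genes (y axis, %) with a summit within 500 bp of a start, by gene class (x axis). Circles with bars are the IDR-thresholded list with exact 95% intervals, squares are replicate 1, triangles are replicate 3, and the dotted line is the 18.8% over all genes. Protein-coding genes, at 21.5%, sit above each noncoding class drawn, and asRNA genes differ most between replicates among the noncoding classes drawn.

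Summits at noncoding promoters were spread more evenly around the start than those at protein-coding promoters. Upstream of the nearest start lay 179 of 300, 59.7% (53.9 to 65.3), against 2032 of 2605 at protein-coding promoters, 78.0% (76.4 to 79.6). The odds ratio was 0.417 (0.325 to 0.535), two-sided Fisher exact test, adjusted p = 3.49e-10 over the 14 site comparisons. Replicate 1 gave 62.5% against 82.1% and replicate 3 gave 56.7% against 71.6%, so noncoding summits were lower in both, with means of 59.6% ± 4.13 and 76.8% ± 7.47 (SD, n = 2 replicates). Summits are not independent replicates, and this holds for every site comparison here. With a window of 200 bp the shares were 65.4% and 75.3% and the call was lost (Fisher exact test, adjusted p = 0.105).

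The median position was 92 bp upstream for noncoding promoters and 130 bp upstream for protein-coding ones. The zone from 50 to 200 bp upstream held 24% of the noncoding summits, against 39.6% of the coding ones. Far downstream, from 400 to 500 bp, the shares were 11.7% (35 summits) and 2.34%, and from 300 to 399 bp they were 9% (27 summits) and 1.958%. Some of these summits lay near the far end of a short noncoding gene. Examples are lncRNA:CR45251 (349 bp long, summit 344 bp downstream) and lncRNA:CR43302 (392 bp long, 388 bp downstream). Others lay in long genes, such as lncRNA:CR43836 (76084 bp long, 384 bp downstream). Distance to gene ends was not compared between the classes. Since the classes differ in the number of starts per gene, the upstream share was also compared, after seeing the data, over genes with 1 start position. It then stood at 58.7% against 85.4% (Fisher exact test, adjusted p = 3.49e-19). By place, 63.7% of summits at intergenic lncRNA genes were upstream, 55.1% at antisense, 76.5% at same-strand and 34.8% at divergent genes. Of the 51 summits with a coding start near, 29 were upstream of the noncoding start, and of the other 249, 150 were.

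**Figure D3:**
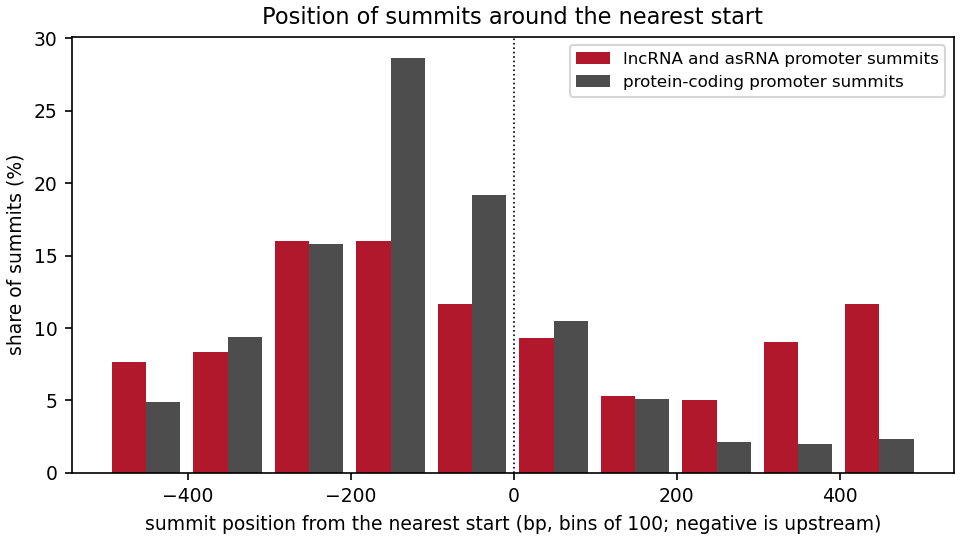
Share of summits (y axis, %) in bins of 100 bp by position from the nearest start (x axis, negative is upstream). Red bars are the 300 lncRNA and asRNA promoter summits and grey bars the 2605 protein-coding promoter summits. The grey bars gather just upstream (28.7% from 200 to 101 bp upstream, where the red bar is 16%), and the red bars are clearly taller beyond 200 bp downstream.

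No difference in signal from protein-coding promoters was detected in the IDR-thresholded list. The signals of noncoding promoter summits ran from 170.348 to 6435.62, with quartiles of 255.792, 419.178 and 1002.34, against quartiles of 249.862, 410.312 and 872.507 at protein-coding promoters and a median of 385.121 over all summits. In the upper 50% of the list were 161 of 300, 53.7% (47.8 to 59.4), against 52.9% of the coding ones (51.0 to 54.8), with an odds ratio of 1.03 (0.812 to 1.31, Fisher exact test, adjusted p = 1). The replicates went in opposite directions, an alternative added after seeing the data. Replicate 1 gave 53.7% against 58.4% (adjusted p = 0.308) and replicate 3 gave 58.4% against 46.3% (odds ratio 1.63, adjusted p = 0.000508, Fisher exact tests). Of the 100 strongest summits of the IDR-thresholded list 7 were at noncoding promoters, and of the 1000 strongest 52, against 300 of all 9657. Coding promoters were not counted in this way, and these counts were not tested.

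Overlap with the replicate lists was in part fixed by the selection of the IDR-thresholded list, which was derived from them, at noncoding and coding promoters alike. Within that list, a replicate 1 peak overlapped 294 of 300, 98.0% (95.7 to 99.3), against 91.0% of coding promoter summits (89.8 to 92.1) and 96.8% of all summits. The odds ratio was 4.86 (2.14 to 11.0, Fisher exact test, adjusted p = 1.68e-05). Because the list was selected from these peaks, the test cannot tell selection from a difference between promoter classes, and no conclusion is drawn from it. Restricted to the stronger 50% of peaks, the shares were 98.8% and 96.3% and the call was lost (Fisher exact test, adjusted p = 0.714). A replicate 3 peak overlapped 296, 98.7% (96.6 to 99.6), against 98.3% of coding promoter summits (97.8 to 98.8), with an odds ratio of 1.24 (0.443 to 3.48, Fisher exact test, adjusted p = 1).

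Both replicates matched 290 of the 300, 96.7% (94.0 to 98.4), and over these the Spearman correlation of the replicate signals was 0.878, against 0.845 over 2332 coding promoter summits. These values are descriptions, since both replicates share a control file and matched peaks were kept for being matched. The rank was nearer to 1 in replicate 1 for 183 of the 290 (63.1%), against 42.5% of the coding ones. Median ranks in the lists of 30000 were 4137.5 in replicate 1 and 4491 in replicate 3 for the noncoding promoters, and 4352 and 4153 for the coding ones. The larger rank was a median of 1.25 times the smaller at noncoding promoters and 1.29 times at coding ones. The 10 not matched in one of the replicates were all of middling or low signal, with lncRNA:CR43260 on X the strongest at 442.593.

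**Figure D4:**
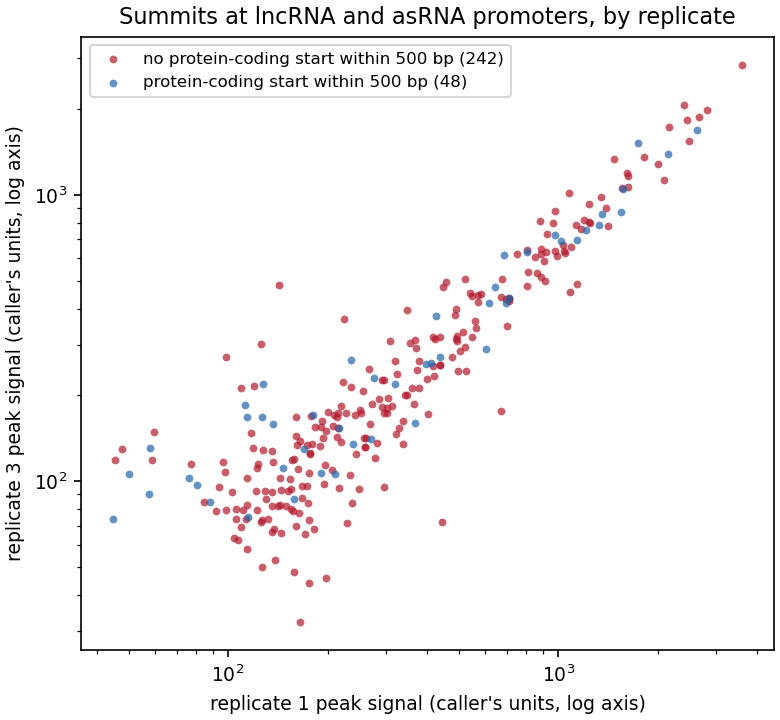
Signal of the matched peak in replicate 1 (x axis) and replicate 3 (y axis), both log axes in the caller's units, for the 290 noncoding promoter summits matched in both. Blue points have a protein-coding start within 500 bp and red points have none. Strong sites lie along a line and weak sites scatter, with mir-14 host CR43651 the high red point on the left, at 142.22 in replicate 1 and 486.546 in replicate 3.

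The widest rank gaps were all at weak sites. The site of lncRNA:CR43301 on 3R (298.337 in the IDR-thresholded list) had 47.6255 (rank 15673) in replicate 1 and 130.031 (rank 6317) in replicate 3. The same direction was seen at lncRNA:CR44017 in gpp, a histone methyltransferase gene (ranks 16135 in replicate 1 and 6943 in replicate 3), and at asRNA:CR45396 in Pdi, a protein disulfide isomerase gene (13611 and 5527). For CR44017 the matched summit of replicate 3 was 123 bp away from the IDR-thresholded one. In the other direction, lncRNA:CR44740 on 2L (196.047) had 164.668 (rank 6417) in replicate 1 and 32.1208 (rank 19525) in replicate 3, followed by lncRNA:CR45355 (5452 and 15391) and asRNA:CR33945 (6060 and 15793).

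Of 10 motifs searched on both strands within 50 bp of the summit, the short BEAF-32 type word CGATA, bound by an insulator protein of housekeeping promoters, was the 1 that passed the test. It was in 26 of 300 noncoding windows, 8.67% (5.74 to 12.4), against 14.01% of coding promoter windows (12.7 to 15.4) and 10.6% of all summit windows. The odds ratio was 0.582 (0.384 to 0.884, Fisher exact test, adjusted p = 0.0438). Each replicate list passed too, with 6.84% against 13.7% in replicate 1 (adjusted p = 0.00305) and 9.28% against 15.9% in replicate 3 (adjusted p = 0.00874, Fisher exact tests). The call was lost with a window of 200 bp around starts, among the stronger 50% of peaks, for genes named lncRNA: alone and with 1 summit per gene (Fisher exact tests, adjusted p = 0.284, 0.921, 0.0657 and 0.115). CGATA is contained in the DRE, TATCGATA.

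Other core promoter and factor motifs did not pass. The TATA box word TATAAA was in 24.7% (19.9 to 29.9) of noncoding windows, 24.1% of coding ones and 25.5% of all. GAGAG, the word of GAGA factor, was in 12.3% (8.83 to 16.6), 12.2% and 9.34%. GATAAG of GATA factors was in 3.67% of noncoding and 4.798% of coding windows, the E-box CAGCTG in 1.33% and 3.22%, and the AP-1 word TGACTCA in 0.667% and 0.691%. The DRE, the Motif 1 core GGTCACAC, the E-box CACGTG and the Zelda type word CAGGTAG were in 0 of the 300 windows, which allows a share of up to 1.00% each by the limit of 3 counts and 1.22% by the exact interval. Coding windows held these 4 in 1.23%, 0.998%, 0.845% and 0.345%, and none of the 4 differences passed (Fisher exact tests, adjusted p = 0.209, 0.240, 0.318 and 0.950). With motif windows of 100 bp to each side, the DRE and GGTCACAC did pass, and with 1000 bp around starts the DRE did. In the other alternatives neither passed. In all, 133 of the 300 windows held at least 1 of the 10 motifs. No such count over coding or all summit windows stands beside it, so whether it is usual cannot be judged. A match is a run of letters and not a shown site.

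Noncoding promoter summits sat on a narrow dip in GC content. The 101 bp at the summit held a median of 30.7% GC (quartiles 24.8 and 36.6), against 45.5% in the windows 400 bp to each side. At coding promoters the values were 31.7% at the summit and 44.6% in the flanks, and over all summits 29.7% and 45.0%. The window at the summit was lower than its flanks at 259 of 300 noncoding promoters (86.3%), at 76.3% of coding promoters and at 86.0% of all summits. The noncoding share was thus close to that of all summits. Some words of A and T were more frequent at summits than in flanks. Among words of 8 bases, ranked after seeing the data, TAAAAAAA or its complement was in 10% of noncoding summit windows and 2.17% of their flanks, and in 7.06% of coding summit windows and 2.63% of theirs. ATATTTAA was in 7.67% and 1.17% at noncoding promoters, and in 5.45% and 1.32% at coding ones. Between the classes TTTAAAAA went the other way, in 7.33% of noncoding and 7.87% of coding summit windows. The words were not tested between the classes.

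**Figure D5:**
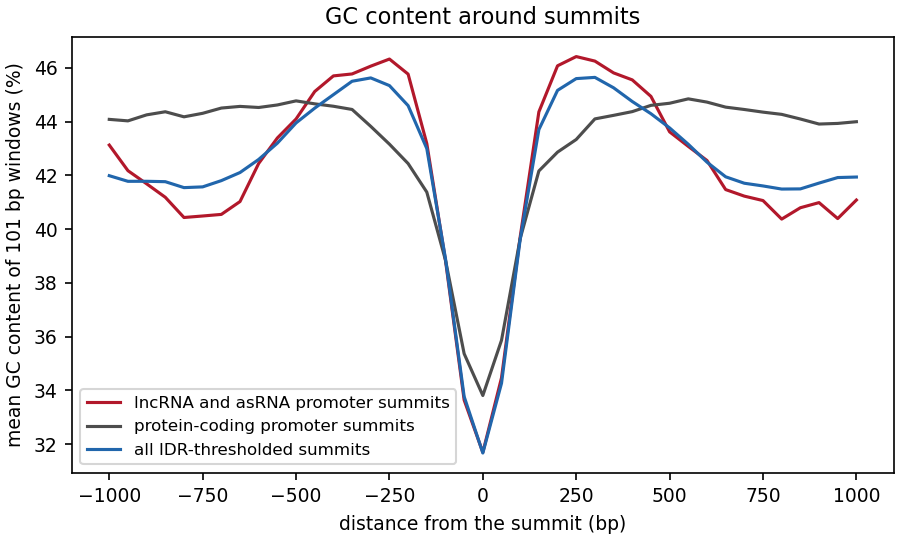
Mean GC content of 101 bp windows (y axis, %) by distance from the summit (x axis, bp) for noncoding promoter summits, protein-coding promoter summits and all summits of the IDR-thresholded list. The y axis does not start at 0. All 3 lines dip at the summit, to 31.7%, 33.8% and 31.7%, and the noncoding line has the higher shoulders near 250 bp on each side.

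The limit of 500 bp has sites close on both sides. Just inside it, at 497 bp, were lncRNA:CR45998 (245.525), lncRNA:CR45542 (254.656) and lncRNA:CR44562 (212.039). Just outside were asRNA:CR45868 at 504 bp (2357.85), lncRNA:CR44681 at 504 bp (900.24) and lncRNA:CR44619 on X at 508 bp (6254.65, rank 21). The summit at CR44619 would have been the strongest after CR31044, and the 3 just outside had higher signals than the 3 just inside. Of the 300 summits, 39 had another IDR-thresholded summit within 500 bp and 28 shared their peak interval with another summit. No such counts over all summits stand beside these, so whether they are usual cannot be judged.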

How the data were processed

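Sites came from ChIP-seq peak lists of 2 biological replicates and their pool, in narrowPeak format on dm6. The authors called peaks against 1 control file and derived the IDR-thresholded list, per the README text deposited with the samples. The caller, IDR program, aligner and versions were not given in the sources used here. The authors' signal (column 7) is relative to the control and was used to rank peaks. The deposited −log10 q-value (column 9) is saturated and was not used. The deposited column 10 gives the summit, which for 4 peaks was not inside the peak.

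Gene starts came from Ensembl release 115 (BDGP6.54), with 5809 transposable elements left out. Positions are counted from 1. A start of another gene at the same distance kept a summit. Replicate lists were limited to their strongest 9657 of 30000 peaks for shares by list and used whole for overlaps (at least 1 bp), where the replicate peak with the closest summit gave signal and rank. Shares have exact (Clopper-Pearson) 95% intervals, odds ratios Wald intervals. Site shares were compared by two-sided Fisher exact tests (scipy 1.17.1) with Benjamini-Hochberg adjustment over 14 comparisons (fewer in replicate lists, which have no overlap comparisons) and a threshold of 0.05. A count of 0 was given a limit of 3 counts. The code was tested on simulated data. Other tools were Python 3.11.15, numpy 2.4.6, pandas 2.3.3 and matplotlib 3.10.9.

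Summits named in full were the 15 with the highest signal, those at genes without a CR number, the 5 strongest asRNA summits, the 3 with the widest rank gap in each direction, the 3 on each side of the distance limit and genes with 3 or more summits. Ties, the strongest sites near coding starts, microRNA hosts, let7C and unmatched sites were added after seeing values. The members, lists and motifs were chosen with earlier results of these data known. Alternatives were other windows around starts and summits, stronger peaks, name classes, ties, 1 summit per gene, RefSeq models, each replicate alone and other overlap rules. Added after seeing the data were starts of 1 kind within the window, genes with 1 start position, transposable elements kept and the upper 50% within replicate lists.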

Additional observations from a re-analysis of the deposited data

How the results depend on the processing

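Of the values that answer a comparison, 57 under alternatives kept their direction and side of the threshold or, for counts and shares, stayed close to the main value. Of the rest, 13 counts or shares moved, 4 values reversed direction, 2 lost the call and 1 gained a call. The number of noncoding promoter summits was 127 with a window of 200 bp, 518 with 1000 bp and 161 among the stronger 50% of peaks, and the share of noncoding genes bound was 5.64%, 23.4% and 7.52% in these. It was 291 to 307 in single replicate lists and 300 with RefSeq models. With 200 bp, the share with a coding start near was 11.0%, the upstream share 65.4% against 75.3% (adjusted p = 0.105, Fisher exact test), and replicate 3 overlap 98.4% against 98.7%. Replicate 3 overlap was 85.3% against 86.0% where 50% of both peaks had to overlap, and replicate 1 overlap lost its call among the stronger 50% of peaks (98.8% against 96.3%). The share in the upper 50% by signal was 51.5% against 52.9% for genes named lncRNA: alone, and 53.7% to 58.4% in single replicate lists, with opposite directions. Where 1 motif passed, 0 did with 200 bp, among stronger peaks, for lncRNA: names alone and with 1 summit per gene, 3 with 1000 bp (DRE and CAGCTG added) and 4 with motif windows of 100 bp to each side (DRE, GGTCACAC and CAGCTG added). Motifs that had not passed turned their direction at these noncoding shares: GATAAG 4.72% and TGACTCA 0.787% with 200 bp, GAGAG 11.2%, CAGGTAG 0.386% and TGACTCA 0.772% with 1000 bp, TATAAA 27.3% and TGACTCA 1.24% among stronger peaks, GAGAG 11.3% and TGACTCA 0.752% for lncRNA: names, GAGAG 20.3%, TATAAA 38.3%, CAGGTAG 1.33% and TGACTCA 1.67% with wider motif windows, GAGAG 10.8% and TGACTCA 0.803% for starts of 1 kind, and in single replicate lists GAGAG 10.7% to 13.7%, TATAAA 23.8% to 24.1% and TGACTCA 0.687% to 0.977%, each reversed in 1 of the lists. The causes were not tested. No paired analysis was possible because there is 1 group. Depth is unknown, so no limit from it can be given.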
